A study of Homo sapiens with 2 samples.

Results

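The genes described here are 42 interferon-stimulated genes, chosen by name as effectors, sensors and STAT or IRF regulators that type I and type II interferons are known to induce. All 42 were found by symbol among the 60527 entries of the deposited expression table. Interferons are secreted proteins that bind cell surface receptors, which activate JAK kinases. These phosphorylate STAT proteins, of which STAT2 acts with IRF9 in a complex called ISGF3. That complex binds a promoter motif, the interferon-stimulated response element (ISRE), while responses to interferon gamma also use another, the gamma-activated site (GAS). Tumour cells can also express such genes at a low level without added interferon.

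RNA was sequenced from cultures of SK-MEL-2, a human cell line that the labels call skin melanoma cells. In the control group the cells received DMSO, the solvent, and in the other group 1.75 µM JNJ-7706621, an inhibitor of cyclin-dependent and Aurora kinases. Treatment lasted 48 h in both, and no interferon is named in the labels. The title of the series concerns the binding of the protein AUF1 to mRNA and mRNA degradation, and neither was measured in these libraries.

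There was 1 library per group, so the differences below have no replicate check, and the conditions could not be tested against each other. Intervals in parentheses are exact 95% counting intervals of the FPKM ratio. They cover counting error only and not the spread between cultures. FPKM (fragments per kilobase of exon per 1000000 fragments) is a value per exon length and library size. The values rested on 23377161 reads for the control and 22817719 for the treated culture. Pigment cell markers went against the label: of 9 such genes TYR, PAX3 and S100B had 0 reads in both libraries and SOX10 and DCT had 1 and 0 each. MITF at 2.65 and 2.27 FPKM and PMEL at 2.00 and 3.71 FPKM were the 2 with a mean of at least 1, and the 9 summed to 4.92 FPKM with DMSO and 6.25 FPKM with JNJ-7706621. The 5 epithelial markers EPCAM, CDH1, KRT8, KRT18 and KRT19 summed to 1962 and 1979 FPKM. The 9 leukocyte and plasmacytoid dendritic cell markers summed to 1.68 and 2.13 FPKM, on 68 and 82 reads, with PTPRC, CD3E, CLEC4C and LILRA4 at 0 in both. Most of these reads were of CD14, with 26 and 47, and IL3RA, with 34 and 31. The 5 fibroblast and endothelial markers summed to 0.25 and 0.672 FPKM, with COL1A2 at 0 in both. COL1A1 made up most of this, at 0.135 and 0.411 FPKM on 31 and 92 reads, a ratio of 3.04 (2.00 to 4.73). It passed the second rule given below, and PDGFRB had 1 and 11 reads.

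The promoters of the 3 members that passed the main rule of size given below, OAS3, ISG15 and UBE2L6, are printed with that of IFITM3, the measured member with the most negative difference. They show whether the known interferon motif was present near the start of genes that differed in opposite directions. Each window runs 5′ to 3′ from 250 bases before the gene's start, with 50 bases from the start on, in the RefSeq annotation of GRCh38.p14. Capitals mark the ISRE letters, searched as 2 GAAA runs with any 2 bases between them or, for the other strand, 2 TTTC runs spaced likewise.
OAS3 (chr12:112938224-112938523, plus strand): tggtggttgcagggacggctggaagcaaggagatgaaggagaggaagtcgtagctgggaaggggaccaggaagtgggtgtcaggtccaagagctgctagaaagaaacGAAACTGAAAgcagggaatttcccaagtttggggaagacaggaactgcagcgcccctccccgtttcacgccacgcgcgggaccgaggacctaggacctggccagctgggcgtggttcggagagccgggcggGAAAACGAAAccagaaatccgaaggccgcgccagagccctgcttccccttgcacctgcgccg
ISG15 (chr1:1013247-1013546, plus strand): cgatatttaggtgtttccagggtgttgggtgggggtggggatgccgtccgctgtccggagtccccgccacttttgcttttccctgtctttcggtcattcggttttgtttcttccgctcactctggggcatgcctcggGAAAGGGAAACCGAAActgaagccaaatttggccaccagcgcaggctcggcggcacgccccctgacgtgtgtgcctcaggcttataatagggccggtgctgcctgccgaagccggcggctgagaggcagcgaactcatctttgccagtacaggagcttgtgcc
UBE2L6 (chr11:57567886-57568185, minus strand): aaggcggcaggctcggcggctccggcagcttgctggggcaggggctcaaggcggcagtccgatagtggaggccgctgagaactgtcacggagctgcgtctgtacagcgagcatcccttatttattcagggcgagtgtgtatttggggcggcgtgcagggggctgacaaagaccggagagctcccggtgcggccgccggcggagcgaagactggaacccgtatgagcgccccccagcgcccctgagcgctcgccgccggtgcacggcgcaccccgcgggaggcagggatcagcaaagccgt
IFITM3 (chr11:320811-321110, minus strand): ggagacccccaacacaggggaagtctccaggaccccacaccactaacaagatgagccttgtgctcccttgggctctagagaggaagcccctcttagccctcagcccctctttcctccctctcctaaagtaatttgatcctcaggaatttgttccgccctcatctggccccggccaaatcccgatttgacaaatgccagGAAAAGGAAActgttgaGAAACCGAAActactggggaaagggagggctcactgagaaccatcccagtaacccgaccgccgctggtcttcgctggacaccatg

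In OAS3 the first bases of the matches lay at -143 and -12 from the start, and in IFITM3 at -52 and -35. In ISG15 the matches at -113 and -107 overlapped. UBE2L6 has 2 windows in the table, of which the one nearest the annotated start is shown, and 0 matches fell in either. OAS3, higher in the JNJ-7706621 library, and IFITM3, lower in it, thus both held 2 matches.

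ISRE letters were common among the members. Of 33 members with at least 1 promoter window, 25 held them (75.8%), against 4.38% of all 27305 symbols in the promoter table. Counted by window, 29 of 42 windows held them (69.0%), against 3.57% of all 35116 windows. The GAS letters TTCNNNGAA, which read the same on both strands, were in the windows of 10 of the 33 members (30.3%), against 9.38% of all symbols. DDX58 stands in that table as RIGI.

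The letters were found on genes of either direction. Among members with a mean FPKM of at least 1, 13 had ISRE letters and 8 of these lay above 0 and 5 below, with a median log2 difference of 0.31 and a range from -0.91 to 1.37. The 6 without them had a median of 0.22 and a range from -0.32 to 1.16. A match describes the letters in this window and not a bound site.

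**Figure D1:**
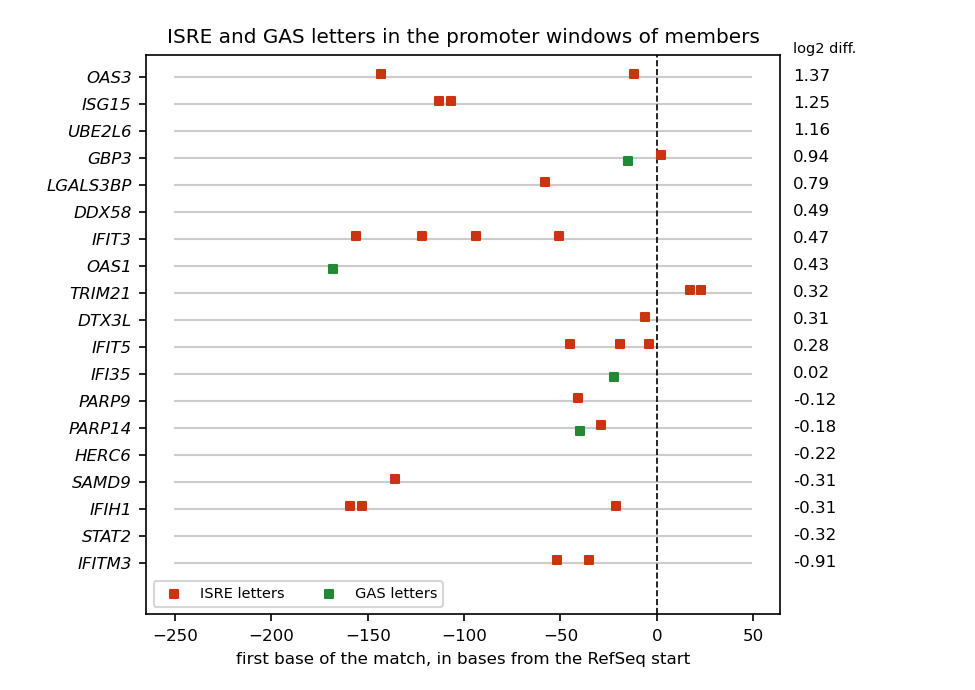
Positions of ISRE letters (red) and GAS letters (green) in the RefSeq promoter windows of the 19 members that have a window and a mean FPKM of at least 1, ordered by the log2 difference printed at the right. The x axis gives the first base of each match in bases from the start, and for genes with more than 1 window all windows are overlaid. Red marks occur from OAS3 at the top, 1.37, to IFITM3 at the bottom, -0.91.

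As a group the interferon-stimulated genes did not move in 1 direction. The members' summed level was 123 FPKM in the DMSO library and 168 FPKM in the JNJ-7706621 library. OAS1, OAS3, LGALS3BP, IFITM2 and TRIM21, the 5 with the highest mean, made up 53.3% and 61.2% of these sums. The remaining 37 members summed to 57.4 and 65.1 FPKM.

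A log2 difference below is log2(FPKM + 1) in JNJ-7706621 minus that in DMSO, which understates differences of genes with low values. Genes whose FPKM averaged 1 or more over the 2 libraries were compared, and the main rule of size asked for a difference of at least 1 or at most -1. Of the 42 members 24 reached that average, and 3 of them passed the rule upwards (12.5%), namely OAS3, ISG15 and UBE2L6. Across all 13241 genes 2.39% did, and 1.79% of the 10167 protein-coding genes. None of the 24 passed it downwards (0 of 24), against 1.36% of all genes and 0.62% of protein-coding genes.

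The members' median log2 difference was 0.30, with 14 of 24 above 0 (58.3%), beside a median of -0.0032 and 49.6% above 0 for all genes. Of the 24, 4 reached the mean of 1 only through the JNJ-7706621 library, namely IFIT2, GBP2, GBP3 and UBE2L6. Another 3, HERC6, IRF7 and SAMD9, reached it only through the DMSO library. The filter itself fixes the sign of such members, so these group values rest partly on it. Without the filter on low values the median over 41 members was 0.05. The threshold separated close neighbours: UBE2L6 stood just inside at 1.16, and GBP3 at 0.94 and GBP2 at 0.79 just outside. With each library rescaled to a sum of 1000000, 6 members were higher, with GBP1, GBP2 and GBP3 added, and 1 was lower, IFITM3. Rescaling also moved the share of all genes past the rule, to 4.47% higher and 2.99% lower.

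A second rule, chosen after the data were seen, asked for an FPKM ratio of at least 2 or at most 0.5, a counting interval that excludes 1 and at least 20 reads over both libraries. It admits genes with low values. Of 35 members with enough reads 8 were higher (22.9%): OAS3, GBP1, GBP2, GBP3, ISG15, UBE2L6, IFI27 and IFI44. Across 16209 genes 7.82% were higher by this rule. IFITM3, DDX60 and IRF7 were lower, 3 of 35 (8.57%), against 4.87% of all genes. For protein-coding genes the shares were 7.32% and 3.5%.

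**Figure D2:**
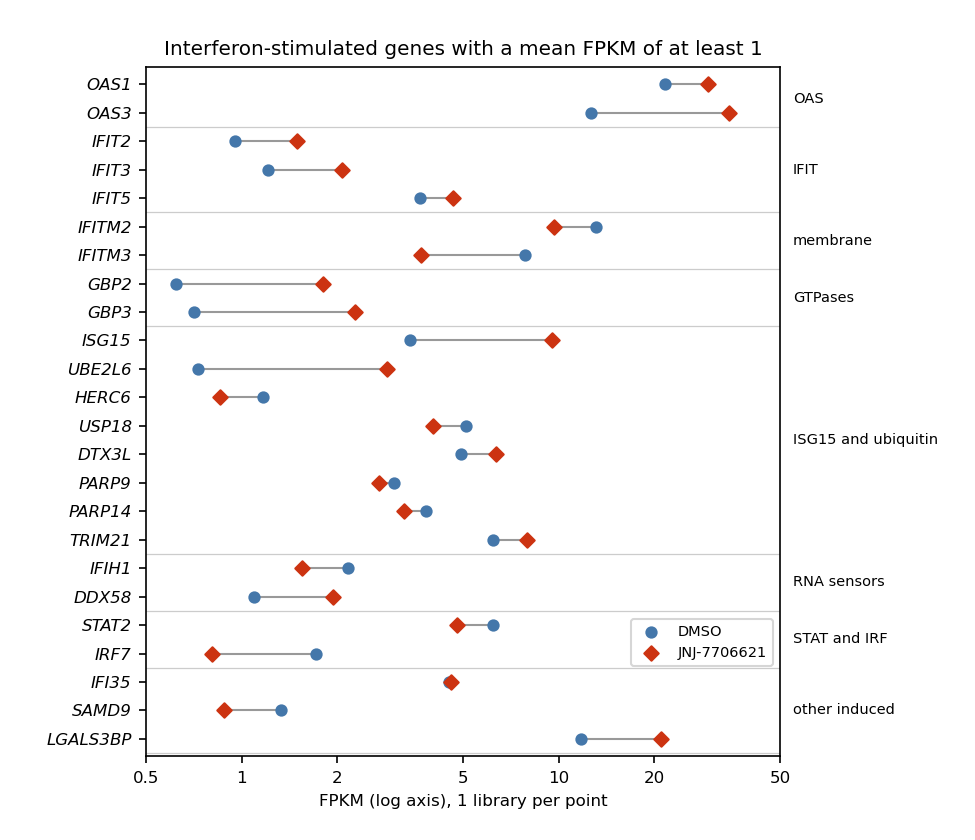
FPKM in the DMSO library (blue circles) and the JNJ-7706621 library (red diamonds) for the 24 members with a mean FPKM of at least 1, on a log axis and grouped by role, with 1 library per point. The widest gaps to the right are those of UBE2L6, GBP3, GBP2, ISG15 and OAS3, and the widest to the left those of IRF7 and IFITM3.

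The OAS enzymes sense double-stranded RNA and make oligoadenylates, which act as an antiviral signal in the cell. Their genes OAS1, OAS3 and OAS2 lie side by side on chromosome 12 (GRCh38), and the 3 had very unequal levels. OAS3 (ENSG00000111331, 112938352 to 112973249, plus strand) measured 12.7 FPKM with DMSO and 34.5 FPKM with JNJ-7706621, giving a ratio of 2.71 (2.59 to 2.84) on 2423 and 6417 reads. Its upstream neighbour OAS1 (112906777 to 112933222) stood at 21.7 and 29.6 FPKM, a ratio of 1.36 (1.29 to 1.43). OAS1 was the highest member in the DMSO library and OAS3 the highest in the JNJ-7706621 library, so their order was exchanged.

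Downstream of OAS3, OAS2 (112978395 to 113011723) had only 8 and 13 reads, a ratio of 1.66 (0.64 to 4.63). OASL, an OAS-like protein without synthetase activity whose gene lies elsewhere on chromosome 12, had 0 reads in DMSO and 4 in JNJ-7706621. Floors of 3 reads correspond to 0.0365 and 0.0374 FPKM for OASL, so no ratio is given.

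Of 8 members of the ISG15 system and ubiquitin ligases with a mean FPKM of at least 1, ISG15 and UBE2L6 passed the rule of size upwards. That is 2 of 8, where 2.39% of all genes passed, and a set of 8 is too small to be set against that share. ISG15 is a ubiquitin-like protein that is joined to other proteins, UBE2L6 is its conjugating enzyme, HERC5 its main ligase and USP18 the protease that removes it. ISG15 (ENSG00000187608, chromosome 1, 1001138 to 1014540, plus strand) measured 3.40 FPKM with DMSO and 9.50 FPKM with JNJ-7706621, giving a ratio of 2.79 (2.11 to 3.73) on 69 and 188 reads. UBE2L6 (ENSG00000156587, chromosome 11, 57551656 to 57568284, minus strand) stood at 0.726 and 2.87 FPKM, a ratio of 3.95 (2.71 to 5.91) on 35 and 135 reads. UBE2L6 reached the mean FPKM of 1 only through the JNJ-7706621 library.

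The ligase and protease genes of the same system did not pass the second rule, and HERC5, with a mean FPKM under 1, was not eligible for the first, which HERC6 and USP18 did not pass either. HERC5 had 27 and 29 reads, a ratio of 1.10 (0.629 to 1.93), and its neighbour HERC6 stood at 1.17 and 0.855 FPKM, a ratio of 0.733 (0.570 to 0.939). USP18, which also restrains signalling from the interferon receptor, stood at 5.11 and 4.01 FPKM, a ratio of 0.785 (0.639 to 0.962).

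The other ubiquitin and ADP-ribosylation genes differed little. DTX3L, a ubiquitin ligase that pairs with PARP9, stood at 4.93 and 6.36 FPKM, a ratio of 1.29 (1.16 to 1.43). PARP9 itself stood at 3.02 and 2.71 FPKM, a ratio of 0.896 (0.798 to 1.01), and the related PARP14 at 3.81 and 3.25 FPKM, a ratio of 0.853 (0.774 to 0.940). The 3 genes lie near each other on chromosome 3, PARP9 at 122527924 to 122564577 on the minus strand and DTX3L at 122564238 to 122575203 on the plus strand, so that their starts overlap. DTX3L and PARP9 fell on opposite sides of a ratio of 1, though the interval of PARP9 reached 1.

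The antiviral ligase genes also went both ways. TRIM21, a cytosolic antibody receptor, stood at 6.19 and 7.97 FPKM, a ratio of 1.29 (1.10 to 1.51). TRIM22 had 56 and 28 reads, a ratio of 0.512 (0.313 to 0.820).

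Guanylate-binding protein genes, which are induced most strongly by interferon gamma and whose products act on vacuoles of intracellular microbes, were all higher in the JNJ-7706621 library. They form a cluster on chromosome 1 from GBP3 (start 89006666) to GBP2 (end 89150456), on the minus strand. GBP1 measured 0.088 FPKM with DMSO and 0.928 FPKM with JNJ-7706621, giving a ratio of 10.6 (5.51 to 22.7) on 10 and 103 reads. GBP2 stood at 0.622 and 1.81 FPKM, a ratio of 2.91 (2.32 to 3.67), and GBP3 at 0.709 and 2.27 FPKM, a ratio of 3.20 (2.44 to 4.25). All 3 passed the second rule, which 7.82% of all genes passed upwards, but a set of 3 is too small to be set against that share. GBP2 and GBP3 did not pass the first, in which a pseudocount of 1 weighs on levels this low, and the mean of GBP1 was under 1.

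The same direction was seen for the neighbouring GBP4 and GBP5, which are not members, at 0 reads in DMSO and 8 and 6 reads in JNJ-7706621. The dynamin-like GTPase gene MX1, a standard readout of type I interferon, did not share this pattern. MX1 had 36 and 38 reads, a ratio of 1.08 (0.667 to 1.76), and MX2 had 0 and 1 reads.

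IFIT proteins bind viral RNA and block its translation, and their 4 genes lie together on chromosome 10. IFIT5 measured 3.65 FPKM with DMSO and 4.66 FPKM with JNJ-7706621, giving a ratio of 1.27 (1.10 to 1.47). IFIT3 stood at 1.21 and 2.07 FPKM, a ratio of 1.71 (1.26 to 2.32), and IFIT2 at 0.955 and 1.5 FPKM, a ratio of 1.56 (1.19 to 2.06). IFIT1, which is among the most inducible of these genes, had 40 and 44 reads, a ratio of 1.13 (0.718 to 1.77). All 4 ratios lay above 1. By the second rule 0 of the 4 passed, where 7.82% of all genes were higher and 4.87% lower. By the first 0 of the 3 with a mean FPKM of at least 1 passed, which leaves out IFIT1. Of all genes 2.39% passed it upwards and 1.36% downwards. Sets of 3 or 4 genes are too small to be set against such shares.

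The membrane proteins IFITM1, IFITM2 and IFITM3, which hinder virus entry, had ratios below 1. IFITM3 (ENSG00000142089, chromosome 11, 319669 to 327537, minus strand) measured 7.84 FPKM with DMSO and 3.69 FPKM with JNJ-7706621, giving a ratio of 0.471 (0.366 to 0.602) on 211 and 97 reads. IFITM2 stood at 13.2 and 9.69 FPKM, a ratio of 0.735 (0.638 to 0.847). IFITM1 had 9 and 4 reads, a ratio of 0.455 (0.102 to 1.63).

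These 3 genes are close copies of each other, so the split of reads among them is uncertain. The share of exon sequence that other genes overlap is also 32.5% in IFITM1, 22.7% in IFITM2 and 21.3% in IFITM3, on the opposite strand in the last. BST2, the tether that holds budding viruses at the cell surface, had 1 and 3 reads.

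**Figure D3:**
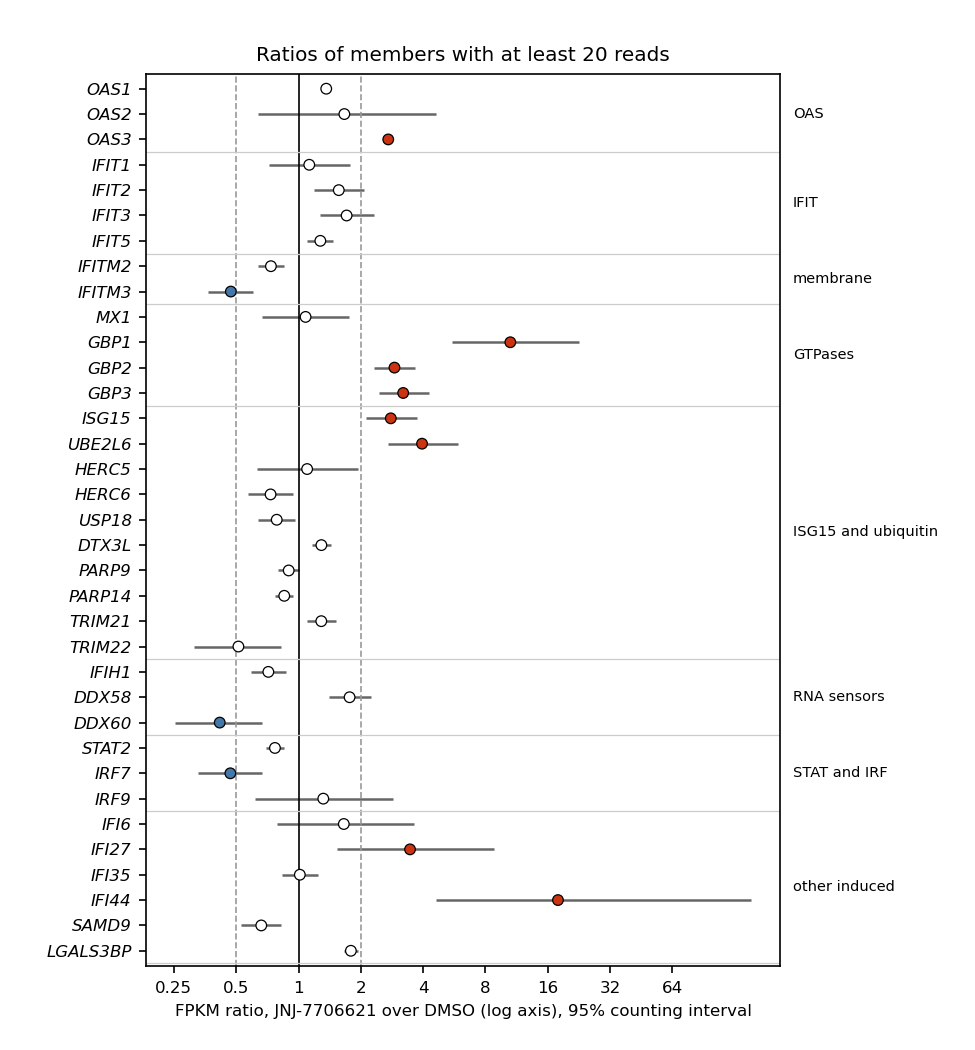
FPKM ratio of JNJ-7706621 over DMSO (points, log axis) with its 95% counting interval (lines) for the 35 members with at least 20 reads over both libraries. Filled red points are the 8 members higher and filled blue points the 3 lower by the second rule, dashed lines mark ratios of 0.5 and 2, and the solid line a ratio of 1. The widest intervals belong to genes with few reads, such as IFI44 at 17.9.

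Cytosolic RNA sensors went in both directions. DDX58, which encodes the sensor RIG-I, measured 1.10 FPKM with DMSO and 1.94 FPKM with JNJ-7706621, giving a ratio of 1.76 (1.40 to 2.23). IFIH1, the gene of a related sensor of long double-stranded RNA, stood at 2.17 and 1.55 FPKM, a ratio of 0.715 (0.588 to 0.868). DDX60, a helicase gene, had 64 and 26 reads, a ratio of 0.416 (0.253 to 0.666).

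The 3 STAT and IRF regulators among the members had ratios below 1 or few reads. STAT2 measured 6.23 FPKM with DMSO and 4.79 FPKM with JNJ-7706621, giving a ratio of 0.769 (0.695 to 0.851). IRF7, the factor that amplifies interferon production, stood at 1.72 and 0.805 FPKM, a ratio of 0.468 (0.326 to 0.665) on 105 and 48 reads. IRF9, the DNA-binding subunit of ISGF3, had 14 and 18 reads, a ratio of 1.32 (0.619 to 2.86). Other genes on the same strand cover 48.4% of the exon sequence of IRF9, and the part of this overlap in its low value was not tested.

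Among the remaining members LGALS3BP had the highest level. LGALS3BP, a secreted glycoprotein that binds galectins, measured 11.7 FPKM with DMSO and 21.0 FPKM with JNJ-7706621, giving a ratio of 1.79 (1.65 to 1.94). IFI35 was nearly equal in both, at 4.51 and 4.58 FPKM, a ratio of 1.01 (0.833 to 1.24). SAMD9, a restriction factor of poxviruses, stood at 1.34 and 0.882 FPKM, a ratio of 0.661 (0.529 to 0.822).

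Several commonly used interferon signature genes were near the limit of detection. IFI44 had 2 reads in DMSO and 35 in JNJ-7706621, a ratio of 17.9 (4.61 to 154), while its neighbour IFI44L had 1 and 3 reads. IFI27 had 8 and 27 reads, a ratio of 3.46 (1.53 to 8.81), and IFI6 had 13 and 21, a ratio of 1.65 (0.791 to 3.60). RSAD2, the gene of the antiviral enzyme viperin, had 1 and 5 reads, and XAF1 had 0 in both. Other genes cover 38.3% of the exon sequence of XAF1. In all, 18 members had a mean FPKM under 1, the highest of these means being 0.877 FPKM.

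The genes upstream of the members were taken from lists of 88 genes of the interferon pathway and of other interferon-stimulated genes. Of these 50 had a mean FPKM of at least 1. By the first rule 3 passed upwards (6%, against 2.39% of all genes) and 0 downwards (against 1.36% of all genes). These 3 were IKBKE, IFNGR1 and APOL1. The median log2 difference of the 50 was 0.22, with 35 above 0 and 15 below.

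Most interferon genes themselves had no reads. Of 10 ligand genes 8 had 0 reads in both libraries, among them IFNB1 and IFNG. IFNE, an epithelial type I interferon, stood at 0.841 and 1.16 FPKM on 29 and 39 reads, with a mean just under 1. Its ratio was 1.38 (0.830 to 2.31). IFNA1 had 6 and 0 reads. IFNA1 belongs to a family of close copies, so these reads are uncertain.

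Both chains of the interferon gamma receptor were higher in the JNJ-7706621 library by ratio. IFNGR1, the ligand-binding chain, measured 42.8 FPKM with DMSO and 96.6 FPKM with JNJ-7706621, giving a ratio of 2.26 (2.17 to 2.35), and IFNGR2 at 11.9 and 19.3 FPKM, a ratio of 1.62 (1.49 to 1.77). The chains of the type I receptor differed less. IFNAR1 stood at 5.85 and 5.24 FPKM, a ratio of 0.896 (0.815 to 0.985), and IFNAR2 at 1.90 and 2.55 FPKM, a ratio of 1.34 (1.11 to 1.61), with 83.2% of its exon sequence covered by other genes. The difference between the 2 receptors was not tested. IFNLR1, a chain of the type III interferon receptor, had 23 and 58 reads, a ratio of 2.58 (1.57 to 4.39), and also passed the second rule.

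The receptor-bound kinases and the IRF genes outside the members did not pass the first rule. JAK1 stood at 12.2 and 16.7 FPKM and TYK2 at 5.98 and 5.38 FPKM. IRF1 stood at 2.86 and 3.81 FPKM and IRF3 at 11.6 and 9.62 FPKM. SOCS3, a feedback inhibitor of JAK kinases, was lower, at 3.24 and 1.43 FPKM, a ratio of 0.440 (0.340 to 0.567), which passed the second rule but not the first. It belongs to a list of 8 negative regulators, of which 7 had a mean FPKM of at least 1. Of these 7, 2 lay above 0 and 5 below, with a median log2 difference of -0.38, again a small set.

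Of 13 genes of nucleic acid sensing 7 had a mean FPKM under 1. The other 6 all lay above 0, where 49.6% of all genes did, but 6 genes are too few to be set against that share. Their log2 differences ran from 0.055 for TBK1 and 0.23 for MAVS to 1.67 for IKBKE. IKBKE, a kinase that activates IRF3 and IRF7 and is also a target of NF-kB, measured 2.82 FPKM with DMSO and 11.1 FPKM with JNJ-7706621, giving a ratio of 3.95 (3.43 to 4.55). CGAS, the sensor of cytosolic DNA, stood at 1.2 and 3.03 FPKM, a ratio of 2.53 (2.03 to 3.16). TRIM25, a ligase that acts on RIG-I, stood at 13.4 and 23.4 FPKM, a ratio of 1.74 (1.66 to 1.82).

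MAVS, the adaptor of RIG-I, stood at 16.8 and 19.8 FPKM and the kinase gene TBK1 at 4.91 and 5.14 FPKM. TMEM173, the gene of STING, through which CGAS signals, had 9 and 25 reads, a ratio of 2.85 (1.28 to 6.93), which passed the second rule at a level under 1 FPKM. TICAM1, an adaptor of TLR3, stood at 2.97 and 4.57 FPKM, a ratio of 1.54 (1.27 to 1.86), and TLR3 had 70 and 108 reads, a ratio of 1.58 (1.16 to 2.17).

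The lists held 40 other interferon-stimulated genes. Of 25 with a mean FPKM of at least 1, 1 passed the first rule upwards (4%, against 2.39% of all genes), with a median log2 difference of 0.22. By the second rule 2 of 34 were higher (5.88%), under the 7.82% of all genes, and 0 were lower (against 4.87%). APOL1, which encodes a trypanosome-lysing factor of serum, stood at 1.41 and 3.95 FPKM, a ratio of 2.80 (2.26 to 3.49). In bulk RNA, more cells that express a gene and more of its RNA per cell cannot be told apart.

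**Figure D4:**
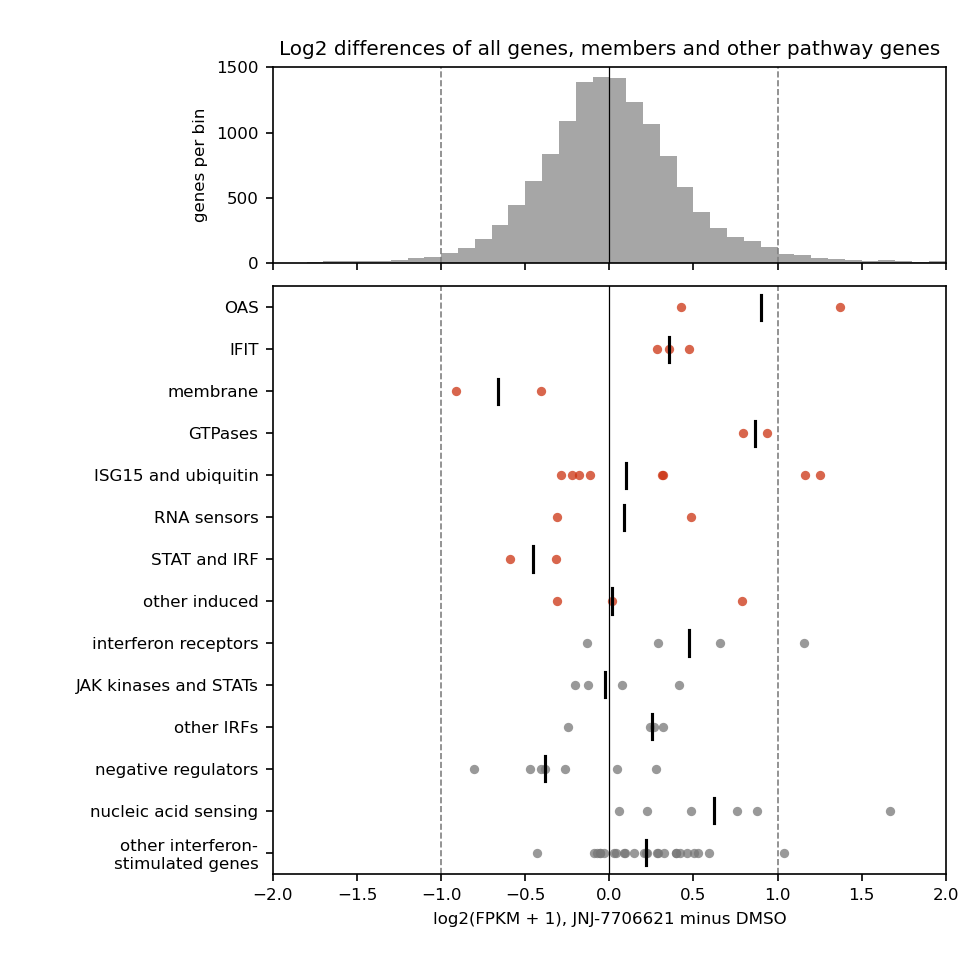
Log2(FPKM + 1) differences, JNJ-7706621 minus DMSO. The upper panel counts all genes whose FPKM averaged 1 or more in bins of 0.1, drawn from -2 to 2, and the lower panel shows the members by role (red) and other pathway genes (grey), 1 point per gene, with a bar at each median and dashed lines at -1 and 1. OAS3, ISG15 and UBE2L6 are the red points beyond 1, and no red point lies beyond -1.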

How the data were processed

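RNA of 1 library per group was analysed. The authors deposited FPKM values per Ensembl gene, and the submitters' processing notes name hg38 and edgeR. Not given in the sources used here are aligner, counter, annotation and strand setting, so reads of genes overlapping on opposite strands may not be separable. The table has 2 further value columns whose names end in 2, where those of the columns used end in 1, and match the label of no sample here. What they hold is not known here, and they were not used.

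Library totals and whole reads were recovered from the FPKM values and the exon lengths of GENCODE release 29, for 27805 of 28014 annotated genes above 0, both values being whole within 0.0001 reads. For 17325 of these the annotated exon length itself gave whole reads. For the others the nearest length that did so was taken, searched from 0.25 to 4 times the annotated one. OAS3, ISG15, UBE2L6, GBP2 and IFITM3 were among these others. Where the recovered exon length differed from the annotated one by more than 25% (JAK1 and TBK1 among those named), no interval was given. Ratios have Clopper-Pearson intervals conditional on both libraries' reads, from scipy 1.17.1. The calculations were tested on simulated data. No count test was run. MB21D1 and C19orf66 of the gene lists stand in the table as CGAS and SHFL.

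The members and lists were chosen with earlier results of these data known. Every member with a mean FPKM of at least 1 is named, and the others by name or count. In the other lists the receptors, kinases, IRFs and adaptors given are named always, with all genes past the rule of size and the 3 next largest differences. TICAM1, TLR3, IFNLR1, GBP4, GBP5, IFNE, IFNA1 and the ligand genes at 0 were named after their values were seen. Gene positions are from GENCODE release 29 and promoters from RefSeq. Some genes that this rule takes are not reported here.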

Additional observations from a re-analysis of the deposited data

How the results depend on the processing

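No paired analysis was possible because each group has 1 library, and for the same reason no library could be left out. By the main rule 3 of 24 members were higher and 0 lower. With a pseudocount of 0.1 FPKM there were 5 and 2 of 24, and with 0.5 FPKM 5 and 0. After rescaling to a sum of 1000000 there were 6 and 1 of 26, and with a 1.5-fold threshold 6 and 2 of 24. The ratio of 2 with its counting interval, a rule added after the data were seen, gave 8 and 3 of 35. These counts are to be read beside those of all genes under the same setting, given below. OAS3 and ISG15 were called higher under every setting run, and UBE2L6 under all but a mean FPKM of at least 5. For all genes the main rule gave 316 higher and 180 lower of 13241. Of the same 13241 there were 608 and 409 with a pseudocount of 0.1, 462 and 274 with 0.5, and 1130 and 897 with the 1.5-fold threshold. Without the filter on low values there were 395 and 243 of 28711, and with a mean FPKM of at least 5, 145 and 75 of 7057. Rescaling gave 714 and 478 of 15964 (4.47% and 2.99%). Protein-coding genes only gave 182 and 63 of 10167, and the ratio rule 1267 and 790 of 16209 (7.82% and 4.87%). For the other pathway genes the counts were 3 and 0 of 50 by the main rule. They were 7 and 1 both with the 1.5-fold threshold and by the ratio rule, and 4 and 1 with a pseudocount of 0.1. A smaller pseudocount, a lower threshold and rescaling each admit more genes by construction. The members' median of 0.30 fell to 0.05 without the filter on low values, where 41 members entered, and lay between 0.28 and 0.35 under the other settings run. Of the 24 measured members 23 kept the sign of their difference under the other pseudocounts and scalings, and IFI35, near 0, changed it. Ratios of genes with fewer than 20 reads are limited by depth.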

Other observations

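Because AUF1 binds AU-rich elements, the UAUUUAU heptamer was counted in 3' UTRs, taking the longest one annotated per gene, a count chosen after the data were seen. Of the 24 members with a mean FPKM of at least 1, 6 held at least 1 heptamer (25%), namely IFIT2, IFIT3, IFIT5, PARP9, SAMD9 and USP18, against 34.8% of 10145 protein-coding genes. These 6 had a median log2 difference of 0.08, from -0.31 to 0.47. The 18 without it had a median of 0.32, from -0.91 to 1.37. OAS3, ISG15 and UBE2L6 were among these 18, as were most of the 24. The count was not adjusted for the length of the 3' UTR, which is 62 bases in ISG15. GBP1, with a mean FPKM under 1 and higher by the second rule, held 1 heptamer. For all protein-coding genes the medians were -0.03 with and 0.02 without the heptamer.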
